A study of Homo sapiens with 6 samples.

Results

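The 9 genes described here encode factors of nonsense-mediated mRNA decay (NMD), namely SMG1, SMG5, SMG6, SMG8, SMG9, UPF1, UPF2, UPF3A and UPF3B. They were chosen by name from the 21447 genes of the deposited transcript tables, with earlier results of these data known. All 9 were measured and passed the filter on low counts. Bulk RNA-seq was performed on unsynchronized U-2 OS cells, a human osteosarcoma line, which were either left untreated or exposed to 4 Gy of ionizing radiation (IR) and lysed 24 h later, with 3 libraries in each group. Both groups were the same line, and the labels name no transgene, knockdown or inhibitor in either. The methods describe triplicate samples and the study calls them independent, while the labels do not say whether they came from separate cultures, so that p-values measure the spread between these samples.

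NMD removes mRNAs on which translation stops too early, and also tunes the levels of many normal mRNAs, among them mRNAs of the stress response. The kinase SMG1, held in a complex with SMG8 and SMG9, phosphorylates the RNA helicase UPF1, which UPF2 and UPF3B (or its paralogue UPF3A) bridge to the exon junction complex left on spliced mRNA. Phosphorylated UPF1 then recruits SMG6, an endonuclease that cuts the mRNA, and SMG5, an adaptor for deadenylation and decapping. SMG1 belongs to the same family of PI3K-related kinases as ATM, ATR and DNA-PK, the kinases of the DNA damage response.

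The libraries held between 18573309 and 22953834 estimated counts, except IR replicate 3 with 45308792. IR replicate 3 also stood apart from the other IR libraries, with a chi-square of 29.1 and 32.2 per gene against them, compared with 5.92 between IR replicates 1 and 2 and with 3.45 to 9.15 among the untreated libraries. The change of each of the 9 genes is therefore also given without it. All 4 genes kept as a check of the IR labels (CDKN1A, MDM2, GADD45A and FAS) were higher after IR. The study names the same 4 genes as highly induced in these samples. Their rise thus checks only that the labels were read as in the study. Of the markers of the line, VIM, COL1A1 and SPARC were highly expressed, with means of 1500 ± 40.9, 2931 ± 233 and 1661 ± 45.6 CPM in untreated cells (SD, n = 3). COL1A2 and ALPL, in contrast, were at 0.977 to 4.95 CPM. CPM is used here for counts scaled to library size after TMM normalization. CD3E was at 0 in all libraries and CD14, PECAM1 and CDH5 were below 1 CPM, PTPRC was at 0.753 to 1.76 CPM, and the epithelial marker EPCAM was at 8.55 to 10.6 CPM. Of these markers RUNX2 was lower after IR (log2 fold change −0.36, adjusted p = 0.0250 by edgeR's quasi-likelihood test), and ALPL (1.09, adjusted p = 0.00716) and CDH1 (0.61, adjusted p = 0.0465, at 1.87 to 3.43 CPM) were higher. The call of CDH1 was lost when any 1 library was left out (adjusted p between 0.0516 and 0.134), and that of RUNX2 without any untreated library or IR replicate 1 (adjusted p between 0.0521 and 0.0790). The part of these markers in the results was not tested.

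Of the 9 genes, 2 had lower mRNA levels after IR, SMG1 and UPF2, and 0 were higher. The other 7 genes, which include the helicase UPF1 and the effectors SMG5 and SMG6, did not pass the test. Across all 14323 genes tested by edgeR's quasi-likelihood test, 14.5% were lower and 15.5% were higher at an adjusted p under 0.05, so that 2 lower genes of 9 is a share near that of the background and says little of the 9 genes as a group. The IR and untreated libraries did not overlap for the same 2 genes of the 9, against 47.1% of all genes tested. The median log2 fold change of the 9 genes was −0.09, beside 0.01 over all genes tested.

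**Figure D1:**
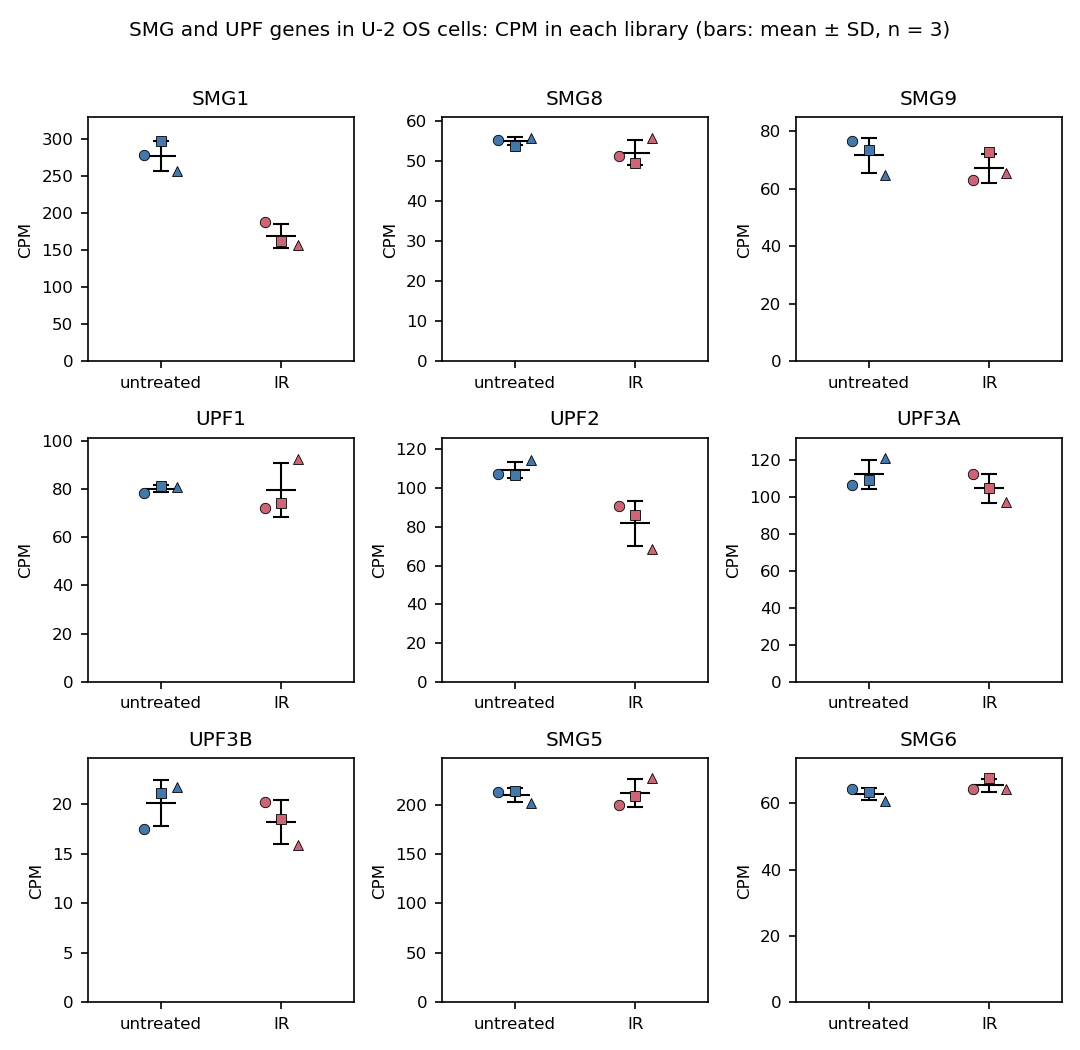
CPM (vertical axes, from 0) of the 9 NMD genes in each of the 3 untreated (blue) and 3 IR (red) libraries, with circles, squares and triangles for replicates 1, 2 and 3 and black bars for the mean ± SD. The IR libraries lie below all untreated libraries for SMG1 and UPF2, and the groups overlap for the other 7 genes.

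SMG1, the kinase that starts the decay step by phosphorylating UPF1, showed the largest difference of the 9 genes. Its gene (ENSG00000157106) spans bases 18804860 to 18926408 of chromosome 16 (GRCh38, reverse strand). The summed level of its transcripts was 278, 296 and 256 CPM in untreated replicates 1, 2 and 3. After IR it was 187, 161 and 157 CPM in replicates 1, 2 and 3. The highest IR library was thus well below the lowest untreated library. The means were 277 ± 20.01 CPM (SD, n = 3) in untreated and 169 ± 16.4 CPM (SD, n = 3) in IR cells. The log2 fold change was −0.72 (SE 0.085, 95% interval −0.90 to −0.53, adjusted p = 0.000612 by edgeR's quasi-likelihood test), and −0.68 without IR replicate 3 (adjusted p = 0.000327). An exact two-sided permutation test of the 6 libraries gave p = 0.1, the smallest value that 3 against 3 libraries can give. SMG1 ranked 140 of the 14323 genes by p, and 9.47% of the genes called lower had a larger fall.

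Of the 31-base windows in the transcripts of SMG1, 19.5% also occur in transcripts of other genes of GENCODE release 44, among them the SMG1 pseudogenes SMG1P1 to SMG1P7, genes of the NPIPB family and several genes without a symbol. Windows of this length are the unit by which a pseudoaligner such as kallisto assigns reads. Only 9.17% occur in other genes of the deposited tables, since those tables hold none of the SMG1P pseudogenes other than the fusion gene BOLA2-SMG1P6. Reads of the pseudogenes and reads of SMG1 cannot be told apart in these windows. The lncRNA ENSG00000260017 also overlaps SMG1 on the opposite strand.

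The 3 genes whose profile over the 6 libraries was most like that of SMG1 were DICER1, TAOK1 and BIRC6. Likeness was the root mean square distance of log2 CPM after centring each gene on its own mean, and it was 0.030 for DICER1, 0.034 for TAOK1 and 0.037 for BIRC6, beside a median of 0.40 over all genes tested. DICER1 encodes the nuclease that makes mature microRNAs, TAOK1 a kinase of the stress-activated MAPK pathways, and BIRC6 a very large ubiquitin ligase. These distances describe 6 libraries that share the same 2 groups, and no test was made.

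Most of the SMG1 signal was assigned to SMG1-201, the canonical mRNA of 63 exons and 16062 bases, which has 10983 coding bases. Of the 16 annotated transcripts, 8 had a mean of at least 1 CPM. SMG1-201 was at 207, 203 and 203 CPM in untreated replicates 1 to 3. After IR it was at 170, 147 and 139 CPM. The second transcript by level was SMG1-210, a protein-coding form of 61 exons and 12465 bases that starts 29534 bases downstream of SMG1-201 and ends 2900 bases upstream of it. Untreated replicates 1 to 3 had 46.8, 60.2 and 30.1 CPM of it, and it is listed at 0 in all 3 IR libraries. No fold change is given for SMG1-210, because its IR values are all 0.

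SMG1-210 shares 59 of its exons with SMG1-201, and none of its 12435 windows is its own within the gene. Only 27 of them are absent from SMG1-201, and all 27 also occur in SMG1-204, a shorter form of 2664 bases. They span the junction made when exon 3 of SMG1-201 is skipped, an in-frame exon of 156 bases (52 codons) at chr16:18896052-18896207 (GRCh38, reverse strand). The exon and the junction are printed because they are the sequence by which SMG1-210 can be told from SMG1-201. In the first line the capitals mark exon 3 and the lower case its neighbours, and in the second the capitals mark the bases after the junction.
SMG1-201: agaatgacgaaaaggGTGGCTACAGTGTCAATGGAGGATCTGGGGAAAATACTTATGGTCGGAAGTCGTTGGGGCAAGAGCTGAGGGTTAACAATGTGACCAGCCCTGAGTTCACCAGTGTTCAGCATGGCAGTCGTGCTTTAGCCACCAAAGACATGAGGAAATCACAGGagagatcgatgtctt
SMG1-210: agaatgacgaaaaggAGAGATCGATGTCTT

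SMG1-204, which carries that same junction, was at 4.59, 5.62 and 5.08 CPM in untreated and at 4.80, 4.02 and 4.25 CPM in IR libraries, so that the groups overlapped. Its level is uncertain, because 57.3% of its windows also occur in other genes, and 46.0% in the SMG1 pseudogenes. The sum of SMG1-201 and SMG1-210 was 254, 264 and 233 CPM in untreated and 170, 147 and 139 CPM in IR libraries. It showed the same separation of the groups as the gene. With all SMG1 transcripts that have no window of their own (SMG1-206, SMG1-209 and SMG1-210) added to SMG1-201, the log2 fold change of that sum was −0.71 (SE 0.096).

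**Figure D2:**
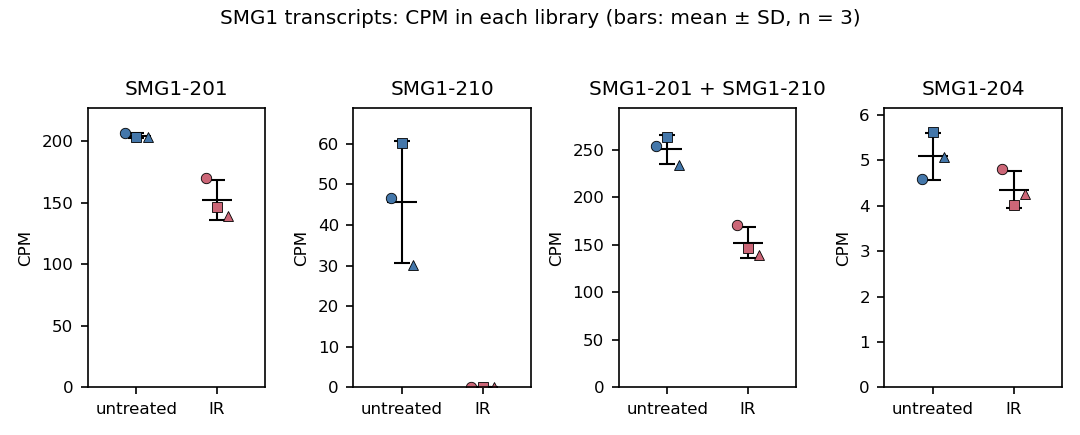
CPM (vertical axes, from 0) of SMG1-201, SMG1-210, their sum and SMG1-204 in each untreated (blue) and IR (red) library, with the mean ± SD as black bars. SMG1-210 is listed at 0 in all IR libraries, while the sum of both separates the groups as the gene does and SMG1-204 overlaps.

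The other SMG1 transcripts were minor. SMG1-216, a retained-intron transcript, was at 8.90 to 9.87 CPM in untreated and at 4.91 to 7.07 CPM in IR libraries, without overlap. SMG1-202, a protein-coding form, was at 2.79 to 5.55 CPM in untreated and at 0.733 to 1.66 CPM in IR libraries, also without overlap. SMG1-214, with a retained intron, was at 1.33 to 2.69 and at 1.99 to 3.21 CPM, respectively. SMG1-212, without a defined coding sequence, was at 1.56 to 2.64 and at 1.36 to 2.15 CPM, and both pairs of ranges overlapped. SMG1-206 was at 2.69, 6.15 and 0 CPM in untreated replicates 1 to 3 and at 0 in the IR libraries. Of the windows of SMG1-202 and SMG1-206, 68.2% and 75.7% also occur in other genes, so that their levels are uncertain. The share was 22.7% for SMG1-216, 24.2% for SMG1-214 and 1.45% for SMG1-212. Protein-coding transcripts together made up 94.8% ± 0.49 (SD, n = 3) of SMG1 in untreated and 93.5% ± 1.2 in IR cells.

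No transcript was called at the transcript level. Of 56752 transcripts tested by edgeR's quasi-likelihood test, 0% passed in either direction, with 6090 at an unadjusted p under 0.05 and a lowest adjusted p of 0.13. DESeq2's Wald test on the same counts called 1445 transcripts higher and 1557 lower, among them 3 of SMG1 (SMG1-201, SMG1-202 and SMG1-210). In the quasi-likelihood fit, SMG1-201 had a log2 fold change of −0.40 (SE 0.081, adjusted p = 0.195). SMG1-216 had −0.61 (adjusted p = 0.423) and SMG1-202 had −1.79 (adjusted p = 0.312).

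A test of transcript usage (edgeR's diffSpliceDGE, Simes method) asks whether the transcripts of a gene changed unequally. It called 285 of 10666 genes, or 2.67%. SMG1 was among them with an adjusted p of 1.16e-16, led by SMG1-210. An earlier look at these data had already placed SMG1 at the top, so that this call is no independent support. With the 3 transcripts that have no window of their own added to SMG1-201, an alternative chosen after seeing the data, the adjusted p of SMG1 was 1.00. This sum removes SMG1-210, the transcript that led the call, so that the loss was fixed in advance and does not test the assignment of reads. The gene total does not depend on how counts were split between these transcripts, which share nearly all of their sequence. On simulated counts with the spread of these transcripts, this test missed most genes with changed usage and called more unchanged genes than changed ones, so that its calls are given as a description.

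SMG8 and SMG9, the partners that hold SMG1 in check within its complex, did not pass the test. SMG8, on chromosome 17 (59209400 to 59215239, forward strand), was at 55.3, 53.8 and 55.8 CPM in untreated and at 51.3, 49.4 and 55.6 CPM in IR libraries. Its log2 fold change was −0.07 (95% interval −0.23 to 0.08, adjusted p = 0.452 by edgeR's quasi-likelihood test), and −0.13 without IR replicate 3 (adjusted p = 0.147). SMG8 shares 396 of its 3789 windows with the overlapping gene ENSG00000265303 on the same strand, and 10.8% of the 3789 occur in any other gene of the deposited tables. Its most abundant transcript, SMG8-201, was at 22.6 to 35.5 CPM in untreated and at 34.4 to 44.4 CPM in IR libraries, and SMG8-202, which differs in the 5′ untranslated region, took 42.2% ± 14.7 and 24.1% ± 6.91 (SD, n = 3) of the pair's counts (exact two-sided permutation test p = 0.2).

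SMG9, on chromosome 19 (43727983 to 43754962, reverse strand), was at 76.5, 73.3 and 64.8 CPM in untreated and at 63.0, 72.6 and 65.5 CPM in IR libraries. The ranges overlapped over most of their length. The log2 fold change was −0.09 (95% interval −0.28 to 0.09, adjusted p = 0.415 by edgeR's quasi-likelihood test), and −0.09 without IR replicate 3 (adjusted p = 0.473). SMG9 had the largest part of retained-intron transcripts of the 9 genes, with 38.8% ± 7.33 of its counts in untreated and 34.8% ± 1.61 in IR cells (SD, n = 3). Its most abundant transcript, SMG9-211, was at 32.5, 33.5 and 22.3 CPM in untreated and at 27.6, 30.9 and 22.4 CPM in IR libraries. The canonical SMG9-201 (5491 bases, against 2387 of SMG9-211) took 27.9% ± 1.42 of the counts of the pair in untreated and 36.0% ± 8.11 in IR cells (SD, n = 3). All 3 IR shares lay above the untreated ones, with the highest, 45.4%, in IR replicate 3 (exact two-sided permutation test p = 0.1, the smallest possible).

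UPF2, the bridge between UPF1 and the UPF3 proteins, was the other gene that fell. It lies on chromosome 10 (11920022 to 12043170, reverse strand). In untreated replicates 1 to 3 it was at 107, 107 and 114 CPM. After IR it was at 91.0, 85.9 and 68.7 CPM, with the lowest value in IR replicate 3. All IR libraries were below all untreated libraries. The log2 fold change was −0.42 (SE 0.098, 95% interval −0.64 to −0.21, adjusted p = 0.0106 by edgeR's quasi-likelihood test) and was −0.32 without IR replicate 3 (adjusted p = 0.00511). The exact two-sided permutation test again gave its smallest value, p = 0.1. UPF2 ranked 1950 of 14323 genes by p, and 39.8% of the genes called lower had a larger fall.

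Nearly all of UPF2 was assigned to 1 mRNA, UPF2-202, of 22 exons and 5168 bases. It was at 107, 105 and 113 CPM in untreated and at 88.2, 82.7 and 67.1 CPM in IR libraries, and its ranges did not overlap. UPF2 was also called by the usage test (adjusted p = 0.000384), led by UPF2-203, which is listed at 0 in the untreated libraries and was at 2.20, 3.23 and 1.54 CPM in IR libraries. UPF2-203 and UPF2-204 share the 256 windows by which each differs from UPF2-202, and neither has a window of its own. Their sum was at 0.616, 1.03 and 1.34 CPM in untreated and at 2.20, 3.23 and 1.54 CPM in IR libraries. With UPF2-204 added to UPF2-203, which was also chosen after seeing the data, the adjusted p of UPF2 usage was 1.00. This sum removes the split between UPF2-203 and UPF2-204, so that the loss does not test the assignment of reads. The call was also lost without untreated replicate 1, untreated replicate 3 or IR replicate 2 (adjusted p = 0.104, 0.0788 and 0.0596).

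UPF1, the helicase at the centre of the pathway, was nearly level between the groups. It lies on chromosome 19 (18831959 to 18868230, forward strand). Its level was 78.3, 81.3 and 80.9 CPM without IR and 72.2, 74.1 and 92.4 CPM after IR. IR replicate 3 was above all untreated libraries and the other two IR libraries were below them. The log2 fold change was −0.01 (95% interval −0.21 to 0.20, adjusted p = 0.971 by edgeR's quasi-likelihood test), and −0.14 without IR replicate 3 (adjusted p = 0.102). UPF1 had the highest GC content of the 9 genes (60.2%), and its value depended on the treatment of GC content, which is given further on.

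UPF1 has an alternative form, UPF1-207, in which exon 7 is longer by 33 bases (11 codons) at chr19:18853072-18853104 (GRCh38, forward strand), which lengthens the regulatory loop of the helicase. The 2 junctions are shown because the isoforms are known to differ in how tightly the helicase binds RNA. Capitals mark the added bases.
UPF1-207: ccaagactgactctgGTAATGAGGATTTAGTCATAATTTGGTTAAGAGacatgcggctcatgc
UPF1-201: ccaagactgactctgacatgcggctcatgc

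The short-loop mRNA UPF1-201 was the most abundant in all 6 libraries, at 64.7, 62.7 and 69.9 CPM in untreated and at 51.6, 59.9 and 71.0 CPM in IR libraries. UPF1-207 took 15.1%, 18.9% and 8.81% of the counts of the pair in untreated libraries, and 26.8%, 17.1% and 21.2% in IR libraries. The ranges overlapped, with means of 14.3% ± 5.09 and 21.7% ± 4.86 (SD, n = 3), and an exact two-sided permutation test gave p = 0.2. UPF1-207 has no window of its own, and 62 of its windows are absent from UPF1-201.

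UPF3B, which links UPF2 to the exon junction complex, and its paralogue UPF3A did not pass the test. UPF3B, on chromosome X (119834022 to 119852998, reverse strand), had the lowest counts of the 9 genes, at 17.5, 21.2 and 21.8 CPM in untreated and at 20.2, 18.6 and 15.9 CPM in IR libraries. Its log2 fold change was −0.16 (95% interval −0.42 to 0.10, adjusted p = 0.331 by edgeR's quasi-likelihood test), the widest interval of the 9, and −0.07 without IR replicate 3 (adjusted p = 0.681). Its most abundant transcript was UPF3B-202, with 19.2 ± 3.32 CPM in untreated and 16.8 ± 1.57 CPM in IR cells (SD, n = 3). This form lacks exon 8 of the canonical UPF3B-201, 39 bases (13 codons) at chrX:119840646-119840684 (GRCh38, reverse strand). The forms also differ elsewhere, because UPF3B-201 has 2343 and UPF3B-202 2335 bases. Of the windows of UPF3B-202, 65 are absent from UPF3B-201. Exon 8 is printed in capitals between its neighbours.
UPF3B-201: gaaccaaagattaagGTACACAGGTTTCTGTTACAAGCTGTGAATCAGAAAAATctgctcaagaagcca

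UPF3B-201 took 12.4%, 0% and 0% of the pair's counts in untreated and 14.2%, 0% and 2.21% in IR libraries, so that the form without the exon prevailed in both groups. Fewer than 2 transcripts of UPF3B passed the filter, and its usage was not tested.

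UPF3A, on chromosome 13 (114281601 to 114305817, forward strand), was at 106, 109 and 121 CPM in untreated and at 112, 105 and 97.0 CPM in IR libraries. The log2 fold change was −0.10 (95% interval −0.27 to 0.07, adjusted p = 0.347 by edgeR's quasi-likelihood test), and −0.06 without IR replicate 3 (adjusted p = 0.608). Transcripts without a defined coding sequence made up 82.6% ± 4.65 of its counts in untreated and 79.8% ± 5.43 in IR cells (SD, n = 3), whereas protein-coding transcripts made up 4.79% ± 5.36 and 7.07% ± 3.58. The most abundant of the former, UPF3A-204, was at 68.9, 67.1 and 62.6 CPM in untreated and at 59.1, 66.5 and 61.8 CPM in IR libraries. The counts of UPF3A are uncertain, because 23.8% of its windows also occur in other genes, chiefly the pseudogenes UPF3AP1, UPF3AP2 and UPF3AP3, of which the deposited tables hold none. Its usage passed the threshold only without untreated replicate 3 (adjusted p = 0.000349), the sole untreated library in which the protein-coding UPF3A-201 was above 0, at 12.6 CPM.

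SMG5 and SMG6, which act after UPF1 is phosphorylated, did not pass the test. SMG5, on chromosome 1 (156249224 to 156282825, reverse strand), was at 213, 214 and 202 CPM in untreated and at 199, 208 and 227 CPM in IR libraries. Its log2 fold change was 0.01 (95% interval −0.14 to 0.17, adjusted p = 0.897 by edgeR's quasi-likelihood test), and −0.05 without IR replicate 3 (adjusted p = 0.569). Its canonical mRNA SMG5-201 held nearly all of this signal, at 199 to 211 CPM in untreated and 198 to 223 CPM in IR libraries. SMG6, on chromosome 17 (2059839 to 2303785, reverse strand), was at 64.2, 63.5 and 60.8 CPM in untreated and at 64.2, 67.7 and 64.3 CPM in IR libraries, a narrow spread in both groups. Its log2 fold change was 0.06 (95% interval −0.08 to 0.20, adjusted p = 0.523 by edgeR's quasi-likelihood test), and 0.06 without IR replicate 3 (adjusted p = 0.517). SMG6-201 was at 57.6 to 62.4 CPM and at 55.2 to 64.5 CPM, respectively. SMG6 overlaps HIC1 on the opposite strand.

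**Figure D3:**
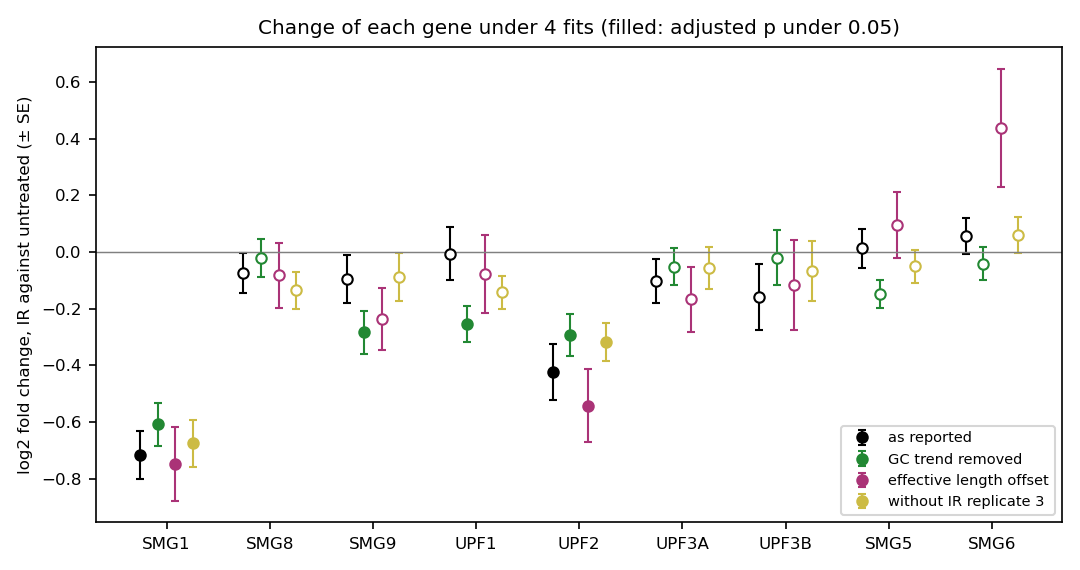
Log2 fold change (IR against untreated, vertical axis, ± SE) of the 9 genes as reported, with the GC trend removed, with an offset for effective length and without IR replicate 3. Filled points have an adjusted p under 0.05, which SMG1 and UPF2 had in all 4 fits and SMG9 and UPF1 had with the GC trend removed alone.

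The changes of the 9 genes depended on the treatment of GC content. SMG1, UPF2 and UPF3B had the lower GC contents (43.0%, 41.6% and 41.5%) and SMG6, SMG5, SMG9 and UPF1 the higher ones (55.1%, 57.6%, 58.6% and 60.2%). With a smooth trend of log counts on GC content removed from each library, SMG1 was at −0.61 (adjusted p = 0.000622) and UPF2 at −0.29 (adjusted p = 0.0183). In the same fit SMG9 was at −0.28 (adjusted p = 0.0217) and UPF1 at −0.25 (adjusted p = 0.0173), so that 4 of the 9 genes were called lower, against 12.6% of all genes tested in that fit. SMG5 and SMG6 then had negative signs, at −0.15 (adjusted p = 0.0507) and −0.04 (adjusted p = 0.648). With an offset for the effective length of each gene in each library, SMG1 was at −0.75 (adjusted p = 0.0122) and UPF2 at −0.54 (adjusted p = 0.0297), and no other member was called. SMG6 moved most under this offset, to 0.44 (SE 0.21, adjusted p = 0.181).

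Levels between genes were compared by TPM, which is scaled for length by the authors. In untreated cells the order of mean TPM was UPF3A at 155 ± 14.8, SMG9 at 69.7 ± 2.24, SMG5 at 46.6 ± 3.25, SMG1 at 44.1 ± 6.78 and UPF2 at 40.8 ± 2.48 (SD, n = 3). Below these came SMG8 at 23.8 ± 1.40, UPF1 at 18.3 ± 1.06, UPF3B at 17.9 ± 3.40 and SMG6 at 12.9 ± 1.78. The order sums all transcripts of a gene and is not an order of protein-coding mRNAs. In untreated cells 4.79% ± 5.36 of the counts of UPF3A were in protein-coding transcripts, and 23.8% of its windows occur in other genes. Retained-intron transcripts held 38.8% ± 7.33 of the counts of SMG9 (SD, n = 3). The single values of SMG5, SMG1 and UPF2 overlapped, as did those of UPF1 and UPF3B and those of UPF3B and SMG6, so that these neighbours did not differ beyond their spread. SMG1, the longest mRNA of the 9, thus had the highest CPM of the 9 in untreated cells but a middle level per length. In IR cells SMG1 was at 25.5 ± 3.58 TPM and UPF2 at 27.0 ± 3.40 TPM (SD, n = 3), with all IR values of both below their untreated ranges. SMG9 also separated on this scale, at 68.3 to 72.3 TPM in untreated and 51.8 to 59.9 TPM in IR libraries. In CPM its groups overlapped, and it was not called (adjusted p = 0.415 by edgeR's quasi-likelihood test). The share of all genes that separate in TPM was not computed, and in CPM it was 47.1%. TPM values were not scaled by TMM and no test was run on them.

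Genes that work with the SMG and UPF factors were counted from lists chosen by function. For each list below, the share over all genes tested was 14.5% lower and 15.5% higher. With the GC trend removed 1804 of the 14323 genes (12.6%) were lower and 1669 higher. With the length offset 875 of them were lower and 837 higher. The lists were not tested as sets. Among 13 measured partners of NMD, such as subunits of the exon junction and cap-binding complexes, 6 fell and 1 rose, with a median log2 fold change of −0.20. CASC3, a subunit of the exon junction complex, had −0.36 (SE 0.068, adjusted p = 0.00423 by edgeR's quasi-likelihood test). SECISBP2, which binds selenoprotein mRNAs, had −0.32 (adjusted p = 0.0163), and PNRC2, a decapping cofactor, had −0.31 (adjusted p = 0.0206). The RNA helicase DHX34, which works with SMG1 and UPF1, was higher at 0.26 (adjusted p = 0.0198). With the GC trend removed 2 of the 13 were lower and 0 higher, DHX34 had −0.06, and with the length offset 0 were lower and 1 higher.

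TELO2 and TTI1 belong to the chaperone complex that assembles SMG1 and the other PI3K-related kinases. Of the 7 genes on this list, TELO2 was higher at 0.63 (SE 0.17, adjusted p = 0.0205 by edgeR's quasi-likelihood test) and TTI1 was lower at −0.24 (SE 0.072, adjusted p = 0.0294), and the median was −0.10. TELO2 was at 21.1 to 26.1 CPM in untreated and 27.8 to 47.9 CPM in IR libraries, and its GC content (66.1%) was above that of all 9 NMD genes. With the GC trend removed TELO2 had 0.17 (adjusted p = 0.301). None of the 4 termination factors (ETF1, GSPT1, GSPT2 and PABPC1) passed edgeR's quasi-likelihood test, with a median of −0.07.

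Of 13 enzymes of decapping, deadenylation and RNA decay, 5 fell and 1 rose (14.5% and 15.5% of all genes tested), with a median of −0.15. CNOT1, the scaffold of the main deadenylase, had a log2 fold change of −0.48 (SE 0.080, adjusted p = 0.00240 by edgeR's quasi-likelihood test). Over the 15 alternative fits CNOT1 ranged from −0.55 to −0.30 with adjusted p up to 0.143, so its call did not hold in every fit. With 1 library left out its adjusted p was at most 0.0146. XRN1, the exonuclease that degrades decapped mRNA, had −0.49 (SE 0.092, adjusted p = 0.00414). The decapping genes DCP1A and DCP2 had −0.40 (adjusted p = 0.00714) and −0.35 (adjusted p = 0.0136), whereas DCP1B, named after its value was seen, had 0.32 (adjusted p = 0.0324). With the length offset 3 of the list were lower and 0 higher, and XRN1 had −1.39 (adjusted p = 0.0126). With the GC trend removed XRN1 had −0.29 (adjusted p = 0.0169).

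Of the 5 other PI3K-related kinases, 4 fell (14.5% of all genes tested) and the median was −0.37. PRKDC, which encodes the catalytic subunit of DNA-PK, was at 702, 747 and 679 CPM in untreated and at 526, 427 and 439 CPM in IR libraries, with a log2 fold change of −0.61 (SE 0.086, adjusted p = 0.00124 by edgeR's quasi-likelihood test). ATM and ATR, the kinases that respond to double-strand breaks and to replication stress, had −0.37 (adjusted p = 0.00415) and −0.33 (adjusted p = 0.00875), and TRRAP, a scaffold without kinase activity, had −0.41 (adjusted p = 0.00581). These calls depended on the length offset, with which 0 of the 5 were called, PRKDC had 0.07, ATM 0.11 and ATR 0.24. SMG1 itself was lower in both fits.

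Some normal mRNAs are often used as readouts of NMD because they accumulate when it is impaired. Of 8 such mRNAs measured, 4 rose and 1 fell (15.5% and 14.5% of all genes tested), with a median of 0.23. GADD45A and ATF3, which are also induced by stress and DNA damage, had log2 fold changes of 0.80 (SE 0.081, adjusted p = 0.000291 by edgeR's quasi-likelihood test) and 0.76 (SE 0.079, adjusted p = 0.000328). UPP1, an enzyme of pyrimidine salvage, had 0.47 (adjusted p = 0.00182), and NAT9, named after its value was seen, had 0.33 (adjusted p = 0.0226). GADD45B, a relative of GADD45A, was lower at −0.34 (adjusted p = 0.00472). With the length offset 3 of the 8 were higher and 0 lower, with GADD45B at −0.23 (adjusted p = 0.156) and NAT9 at 0.33 (adjusted p = 0.0926), and with the GC trend removed NAT9 had 0.16 (adjusted p = 0.128). Transcription and decay of these mRNAs cannot be told apart in total levels, nor can fewer cells of a type and less RNA per cell.

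**Figure D4:**
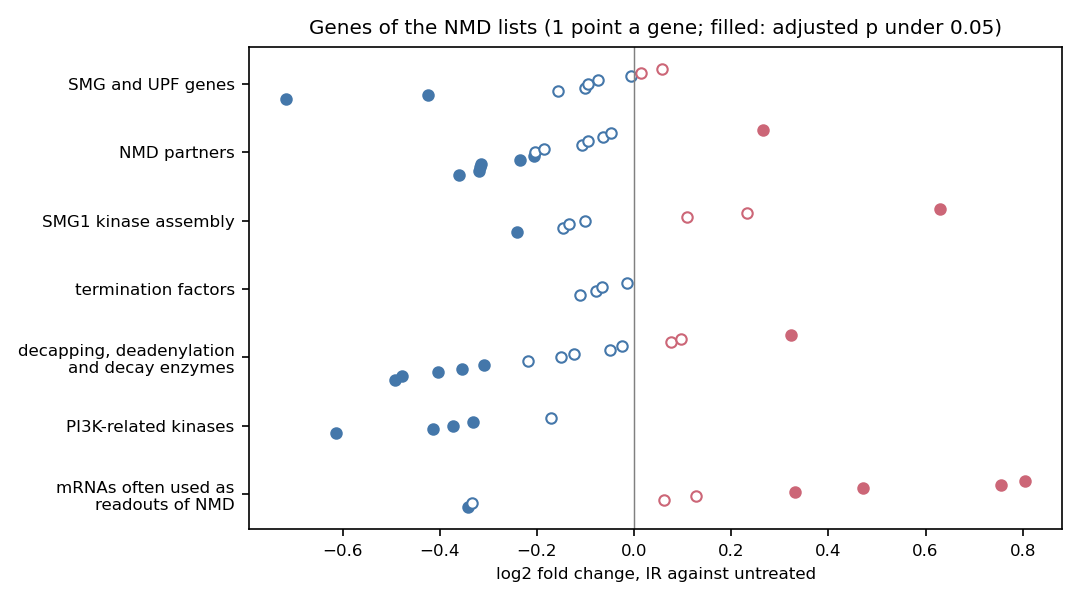
Log2 fold change (IR against untreated, horizontal axis) of the 9 SMG and UPF genes and of each gene of 6 related lists, 1 point a gene, filled where the adjusted p was under 0.05. SMG1 lies at −0.72 and UPF2 at −0.42, and 4 of the 5 PI3K-related kinases lie between −0.33 and −0.61.

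Several calls of list genes rested on single libraries. DHX34 was not called without untreated replicate 1 or 3 (adjusted p = 0.0917 and 0.0605), PNRC2 without untreated replicate 1 or 3 (adjusted p = 0.0807 and 0.0612) and SECISBP2 without untreated replicate 2 (adjusted p = 0.0794). TELO2 was not called without untreated replicate 1 or 2 (adjusted p = 0.0751 and 0.0551), DCP2 without untreated replicate 3 (adjusted p = 0.0547), and TTI1 was called in the full set and without IR replicate 3 but not when any other library was left out (adjusted p between 0.0531 and 0.0996). DCP1B was likewise called without IR replicate 3 alone (adjusted p between 0.0557 and 0.119 without any other library). NAT9 was not called without any 1 of the untreated libraries or without IR replicate 2 (adjusted p between 0.0501 and 0.0944). TELO2, at its highest in IR replicate 3, had 0.37 without that library (adjusted p = 0.0313). The calls of SMG1 and UPF2 held when any single library was left out.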

How the data were processed

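Bulk RNA-seq of 3 untreated and 3 IR libraries of U-2 OS cells was analysed, grouped by the treatment label. The authors trimmed reads with fastp, ran kallisto against GENCODE release 37 of GRCh38.p13, and deposited 4 columns per transcript, with lengths, effective lengths (some above the length), kallisto's estimated counts and TPM. The estimated counts were deposited without normalization, whereas the deposited TPM values correct for effective length and depth. The labels name polyA RNA and the methods a total RNA kit. IR replicate 3 alone has a suffix in its file name that may stand for a repeat.

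Of 161171 transcripts, 158711 matched GENCODE release 44 by identifier (symbols, GRCh38 coordinates, sequences), without 2460 others. Counts were added up by gene, rounded, filtered by filterByExpr, TMM-scaled and tested by glmQLFTest (edgeR 4.0.16, limma 3.58.1, R 4.3.3) over all genes, with Benjamini–Hochberg adjustment, a threshold of 0.05 and standard errors from the F statistic. DESeq2 1.42.0 was an alternative. Usage was tested by diffSpliceDGE. Windows of 31 bases were compared over all release 44 transcripts. GC content was weighted by transcript abundance. Permutation tests used log2(CPM + 0.5). Scripts were tested on simulated data: with even spread the usage test recovered the changed genes.

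The genes named are the 9 members, SMG1 transcripts of at least 1 CPM on average, the most abundant transcript of each other member, at most 4 called genes per list by lowest p, and the 3 genes most like SMG1. Members, lists and tests were chosen with earlier results of these data known. GAS5 and SNHG12 of the lists were not analysed here. The listed symbol BTZ is an alias of CASC3, which was analysed under that name.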

Additional observations from a re-analysis of the deposited data

How the results depend on the processing

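SMG1 and UPF2 were lower under all 15 alternatives, from −0.81 to −0.61 for SMG1 (adjusted p up to 0.0122) and from −0.54 to −0.29 for UPF2 (adjusted p up to 0.0443). The number of genes called was 4307, 1712 with the effective length offset, and 2582 to 4398 with 1 library left out. Of the 9 members 2 were called, and 4 with the GC trend removed, with or without the replicate block. In these 2 fits SMG5 had −0.15 in both, SMG6 −0.040 in both, SMG9 −0.28 in both, UPF1 −0.25 and −0.26, and DHX34 −0.059 and −0.057. With 1 library left out SMG5 ranged from −0.051 to 0.041 and UPF1 from −0.14 to 0.046. With the length offset ATM had 0.11, ATR 0.24 and PRKDC 0.069. The cause of these shifts was not tested.

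Genes with a usage call numbered 285, 518 with at least 10 counts in every library of 1 group, 149 with the replicate block, and 228 to 443 with 1 library left out. The adjusted p of SMG1 usage was 1.00 with its transcripts without own windows added to SMG1-201, and up to 3.34e-06 with 1 library left out. That of UPF2 usage was 0.0841 with the replicate block, 0.00280 to 0.104 with 1 library left out, and 1.00 with UPF2-204 added to UPF2-203. DESeq2's Wald test called 3 SMG1 transcripts instead of 0. Summing SMG1 transcripts of the same coding sequence was not run, because none share one.

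Same-numbered libraries did not deviate together (correlations of −0.01, −0.03 and −0.07), and libraries of different numbers had −0.04 to 0.06. Whether the numbers pair the samples cannot be decided from these values, because deviations from a mean of 3 libraries depend on each other. With the replicate block 1727 genes were higher and 1624 lower, and SMG1 and UPF2 were the only members called. Of the named list genes TTI1 and CDH1 were lost (adjusted p = 0.0518 and 0.0909).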
